A study of Mus musculus with 7 samples.

Results

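Trem2 receptor signalling was examined through 8 genes, chosen by name from the counts table: the receptors Trem2 and Treml2, the membrane adaptors Tyrobp and Hcst, and the cytoplasmic signalling genes Syk, Plcg2, Inpp5d and Vav1. All 8 were among the 55341 gene names of the table, and all 8 were among the 15257 genes with enough counts to be tested. The samples were CD11b+CD45low cells, the sorting gate for microglia, from 5xFAD mice on a C57BL/6 background with a labelled age of 14 weeks. These mice carry human APP and PS1 transgenes with familial Alzheimer's disease mutations, driven in neurons by the Thy1 promoter, and the study used female mice. A suspension of embryonic wild-type cortical neurons, which lack these transgenes, had been grafted into the cortex, and grafts and pieces of nearby cortex were taken 4 weeks after injection. Inside-graft cells gave 3 libraries and outside-graft cells, the controls from transgenic host tissue, gave 4 libraries, with totals of 18644807 to 25882122 counted reads. The labels do not say whether the libraries came from separate mice, so the P values measure the spread between these libraries, which may be technical.

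TREM2 is a lipid- and lipoprotein-binding receptor of microglia and other macrophages. It has almost no signalling tail of its own and depends on the adaptor DAP12, encoded by Tyrobp, whose phosphorylated tyrosine motif (ITAM) recruits the kinase SYK. A second adaptor, DAP10, encoded by Hcst, carries a different tyrosine motif (YxxM) that recruits PI3 kinase, while PLCγ2 and VAV1 act downstream of SYK and the lipid phosphatase SHIP1, encoded by Inpp5d, opposes PI3 kinase. Microglia near amyloid plaques are known to take on an expression state with high Apoe, Axl and Clec7a that depends in part on TREM2, and variants of several of these genes alter the risk of Alzheimer's disease.

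The coding runs of the adaptor motifs are shown because they are the parts of these 8 genes through which the receptor signals. They were read from the principal GENCODE M21 transcripts (GRCm38), 5′ to 3′ on the coding strand, with the tyrosine codons in capitals. A run with the spacing of an ITAM was found once in Tyrobp and once in Fcer1g, the adaptor of Fc receptors, which is shown for comparison. The principal coding sequence of Trem2 held neither kind of run.
Tyrobp ITAM: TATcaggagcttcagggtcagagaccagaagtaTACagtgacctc
Fcer1g ITAM: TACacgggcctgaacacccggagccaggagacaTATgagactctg
Hcst YxxM: TACatcaacatg
Both ITAM runs spanned 15 codons, and in both an intron separated the first 6 bases from the other 39. In Tyrobp, on the plus strand of chromosome 7, the first 6 bases lay in exon 4 at chr7:30415670-30415675 and the rest in exon 5 at chr7:30417344-30417382. In Fcer1g, on the minus strand of chromosome 1, they lay in exon 4 at chr1:171230067-171230072 and in exon 5 at chr1:171229889-171229927. The Hcst run lay in exon 4, on the minus strand, at chr7:30417821-30417832.

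Values are given as counts-per-million (CPM), scaled with the trimmed mean of M values, and a gene was called when its adjusted P was below 0.05 in edgeR's quasi-likelihood test or in limma's voomWithQualityWeights, the test named in the study's methods. None of the 8 members was called in either test, where 0.0983% of all tested genes were called by edgeR and 0.492% with quality weights. Before adjustment, 1 member had a P below 0.05 with edgeR (Tyrobp), 2 with quality weights (Tyrobp and Hcst) and 1 with DESeq2 (Tyrobp), which called 0 members. The corresponding shares of all tested genes were 9.55%, 12.2% and 11.1%. The inside-graft and outside-graft libraries overlapped for all 8 members, where all inside libraries stood above all outside libraries for 5.65% of tested genes and below them for 5.02%. The 4 receptor and adaptor genes had higher means inside the graft and the 4 cytoplasmic genes lower means, with edgeR log2 fold changes of 0.36 to 0.56 and of -0.19 to -0.08, respectively. As the plot of the members by library shows, inside graft 2 was the highest of all libraries for Trem2, Tyrobp and Hcst.

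**Figure D1:**
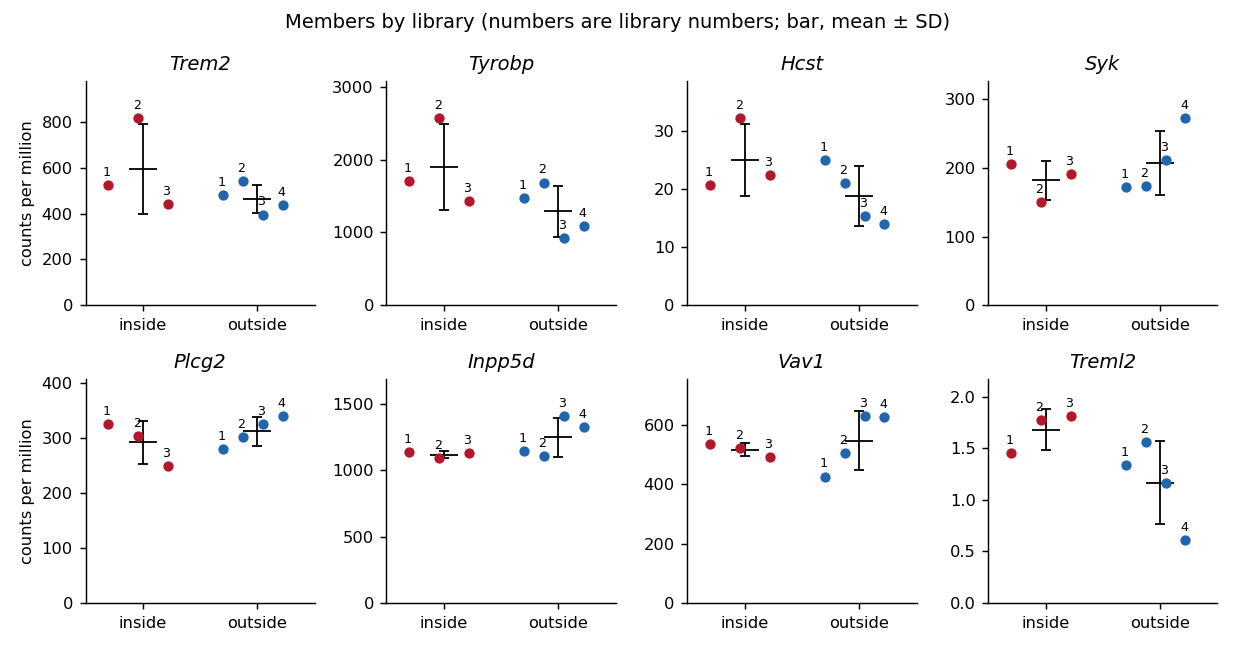
CPM (y axis, from 0) of each member in the 3 inside-graft (red) and 4 outside-graft (blue) libraries, with bars for mean ± SD and digits for the library number. The groups overlap in every panel, and inside graft 2 is the highest library for Trem2 (817 CPM), Tyrobp (2569 CPM) and Hcst (32.2 CPM).

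Trem2 (chr17:48346401-48354147, plus strand) measured 526, 817 and 445 CPM inside the graft and 482, 543, 397 and 438 CPM outside it. Inside graft 2 stood above the other 6 libraries, and inside grafts 1 and 3 lay within the range of the outside libraries. The mean was 596 ± 196 CPM (SD, n = 3) inside and 465 ± 62.6 CPM (SD, n = 4) outside. The log2 fold change was 0.36 ± 0.20 (SE) with an edgeR adjusted P of 0.631, and with quality weights it was 0.38 with an adjusted P of 0.421. The 95% interval with quality weights ran from 0.996-fold to 1.70-fold, so a larger mean change in either direction lay outside it. Without inside graft 2 the edgeR log2 fold change was 0.06. In bulk libraries such as these, fewer cells of a type and less RNA per cell cannot be told apart.

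Treml2 (chr17:48299498-48312533, plus strand), a Trem-family receptor, starts 46903 bases upstream of Trem2 in the same cluster on chromosome 17. It was close to the limit of detection, with 37, 40 and 43 counts inside the graft and 25, 35, 29 and 15 counts outside it. These correspond to 1.45, 1.78 and 1.81 CPM inside and to 1.33, 1.56, 1.17 and 0.607 CPM outside. Outside graft 4 was the lowest library, and outside graft 2 lay above inside graft 1. The log2 fold change of 0.53 ± 0.58 (SE) had an edgeR adjusted P of 0.86. The 95% interval with quality weights ran from 0.736-fold to 3.81-fold, so it held no change as well as changes up to these bounds.

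Of the 8 annotated genes of this cluster (chr17:48232768-48367176), 3 had enough counts to be tested, and Trem2 had at least 9025 counts in every library while no other gene exceeded 138. Trem3 had 71, 5 and 116 counts inside the graft and 0, 0, 1 and 1 outside it. Trem1, the receptor that amplifies inflammatory responses of neutrophils and monocytes, had 12 counts in inside graft 3 and 0 in the other 6 libraries, where 0 counts allow a level of up to 0.16 CPM at the smallest library. Both genes were below the filter and were not tested, and S100a8, the calprotectin subunit abundant in neutrophils, stood in the same order as Trem3 within the inside libraries at 1953, 208 and 4077 CPM. The part of neutrophil RNA in these counts was not tested.

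Tyrobp (chr7:30413760-30417585, plus strand) had the lowest adjusted P of the members. It measured 1712, 2569 and 1427 CPM inside the graft and 1479, 1687, 921 and 1088 CPM outside it. Inside graft 2 was again the highest, outside grafts 3 and 4 were the lowest, and the other 4 libraries overlapped. The edgeR log2 fold change was 0.56 ± 0.24 (SE), or 1.47-fold, with an unadjusted P of 0.0396 and an adjusted P of 0.482. With quality weights it was 0.69, with an unadjusted P of 0.00846, an adjusted P of 0.204 and a 95% interval for this gene alone of 1.16-fold to 2.25-fold. In that fit, for all genes, outside grafts 3 and 4 had the highest weights, 1.71 and 1.76, and outside graft 1 the lowest, 0.448. Leaving out inside graft 2 lowered the log2 fold change to 0.28 with edgeR and 0.44 with quality weights, and leaving out outside graft 3 lowered the latter to 0.43.

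Hcst (chr7:30417712-30419854, minus strand) measured 20.7, 32.2 and 22.4 CPM inside the graft and 25.03, 21.04, 15.3 and 13.9 CPM outside it. Outside graft 1 lay above inside grafts 1 and 3, and outside grafts 3 and 4 were the lowest. The log2 fold change was 0.42 ± 0.26 (SE) with an edgeR adjusted P of 0.686, and it was 0.58 with an adjusted P of 0.34 with quality weights, where the unadjusted P was 0.0298. It fell to 0.20 with edgeR without inside graft 2. Hcst and Tyrobp are neighbours whose 3′ ends face each other with 127 bases between them, and Hcst counts were 1.21% to 1.69% of Tyrobp counts across the 7 libraries. Because strand was ignored in counting, reads running from one gene into the other cannot be told apart from the other gene's own reads.

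The ratio of Tyrobp to Trem2 counts was 3.26, 3.14 and 3.21 inside the graft and 3.07, 3.11, 2.32 and 2.48 outside it. All 3 inside libraries stood above all 4 outside libraries, although outside grafts 1 and 2 came close to them. A two-sided exact permutation test over the libraries gave P = 0.0571, the smallest value that 3 against 4 libraries allow. The test could not fall below 0.05, so its P only restates that the groups did not overlap. The principal transcripts of Tyrobp and Trem2 have 564 and 1088 bases. In outside grafts 3 and 4 the median log2 deviation was -0.24 and -0.21 for genes of at most 800 bases and -0.10 and -0.07 for genes of 801 to 1500 bases. The part of transcript length in this ratio was not tested.

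Syk (chr13:52583173-52648792, plus strand), the kinase that binds the phosphorylated ITAM, measured 206, 150 and 191 CPM inside the graft and 173, 174, 212 and 272 CPM outside it. Inside graft 2, the highest library for Trem2, was the lowest for Syk, and outside graft 4 was the highest. The log2 fold change was -0.19 ± 0.18 (SE, edgeR adjusted P = 0.83), and without outside graft 4 it was -0.03. Plcg2 (chr8:117498291-117635142, plus strand), the phospholipase that turns SYK activity into calcium and diacylglycerol signals, measured 324, 303 and 249 CPM inside and 279, 302, 325 and 339 CPM outside, with a log2 fold change of -0.09 ± 0.13 (SE, edgeR adjusted P = 0.896). Inside graft 3 was the lowest library for Plcg2, and the sign of its change depended on that library, without which it was 0.010.

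Inpp5d (chr1:87620312-87720507, plus strand) varied least of the members inside the graft relative to its mean, at 1140, 1090 and 1127 CPM, against 1145, 1110, 1409 and 1329 CPM outside. Outside grafts 3 and 4 stood above the other 5 libraries. The log2 fold change was -0.16 ± 0.11 (SE, edgeR adjusted P = 0.729). Vav1 (chr17:57279100-57328031, plus strand), a guanine nucleotide exchange factor for Rac, measured 536, 522 and 493 CPM inside and 426, 506, 630 and 629 CPM outside. Its outside libraries enclosed all 3 inside libraries, and its log2 fold change was -0.08 ± 0.15 (SE, edgeR adjusted P = 0.92). The 95% intervals with quality weights for these 4 genes lay between 0.634-fold, the lower bound for Syk, and 1.08-fold, the upper bound for Plcg2, so a rise of their mean inside the graft beyond the latter was outside the intervals.

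**Figure D2:**
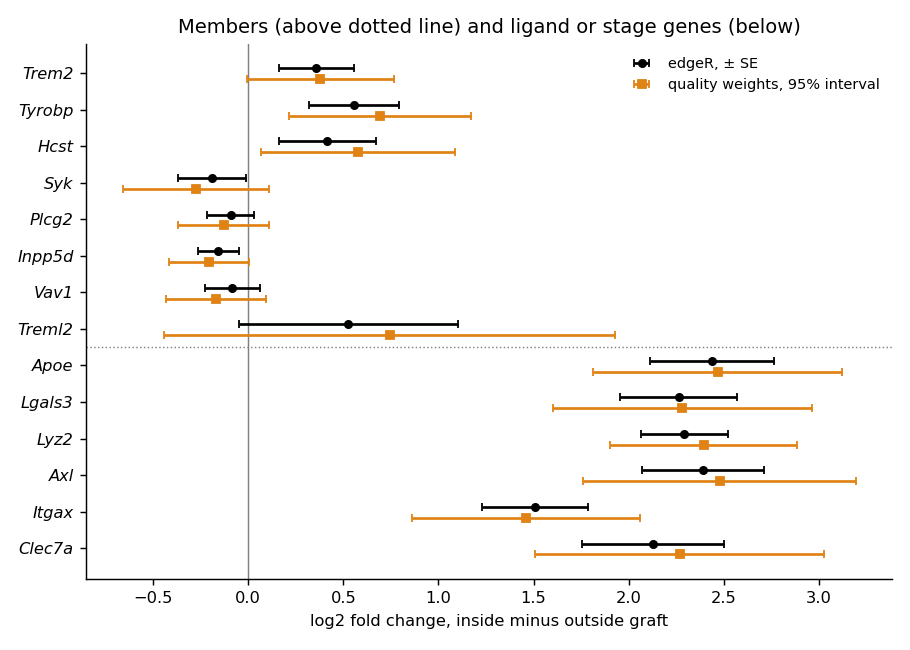
Log2 fold change, inside minus outside graft (x axis), of the 8 members above the dotted line and of 6 ligand or stage genes called in at least 1 test below it. Black points are edgeR estimates with ± SE and orange squares are estimates with quality weights and 95% intervals; the members lie between -0.28 and 0.74, and the other 6 genes between 1.46 and 2.48.

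Levels were compared between members per kilobase (RPKM), first with the exon lengths given in the counts table. Tyrobp had the highest level, with a mean over the 7 libraries of 2331 RPKM, and no other member reached its lowest library (1380 RPKM). Inpp5d, Vav1 and Trem2 followed at 157, 145 and 105 RPKM, with overlapping ranges between neighbours, although Inpp5d exceeded Vav1 in 7 of 7 libraries and Vav1 exceeded Trem2 in 6 of 7. Plcg2 stood at 70.5 RPKM, below Trem2 in 7 of 7 libraries. Hcst and Syk, at 29.8 and 21.02 RPKM, overlapped, and Treml2 was lowest at 0.282 RPKM. The exon length of Trem2 in the table, 4946 bases, pools all annotated transcripts, while its principal transcript has 1088 bases. With principal-transcript lengths, a choice made after seeing the data, Trem2 moved from the fourth to the second place at 479 RPKM, above Inpp5d (242 RPKM) in 7 of 7 libraries, and the order of the other members stayed as it was. Fcer1g, taken as the other ITAM adaptor outside the rule for named genes, had 1360 to 2210 RPKM on this scale.

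**Figure D3:**
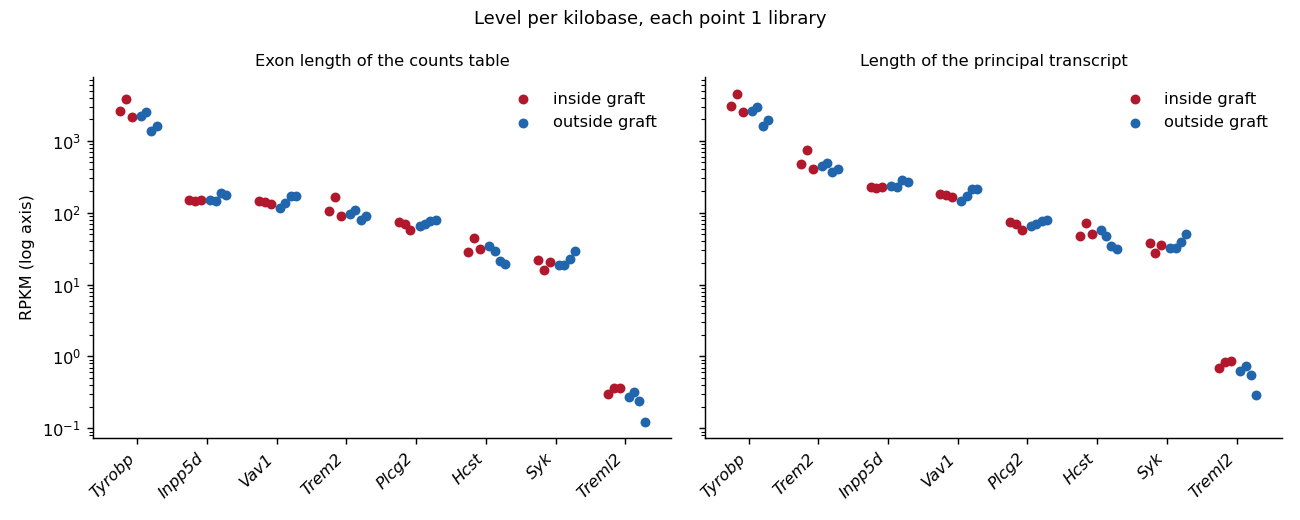
Level per kilobase (RPKM, log axis) of the 8 members in each inside-graft (red) and outside-graft (blue) library, with the exon length of the counts table on the left and the principal-transcript length on the right. Tyrobp is highest and Treml2 lowest on both scales, while Trem2 lies below Vav1 on the left (mean 105 RPKM) and above Inpp5d on the right (mean 479 RPKM).

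The members were put into 2 blocks by their roles, and the same blocks divide the members with higher means inside the graft from those with lower means. Correlations between members across the 7 libraries are given as a description because the libraries share their group, depth and length trend. Group means were not removed, so the signs of r partly restate the directions of change. The log2 CPM of Trem2 and Tyrobp had a Pearson r of 0.94, Tyrobp and Hcst of 0.89, and all 6 pairs among the 4 receptors and adaptors had r above 0 (0.49 to 0.94). All 6 pairs among the 4 cytoplasmic genes also had r above 0 (0.50 to 0.78). All 16 pairs between the blocks had r below 0, from -0.92 for Hcst and Syk to -0.005 for Trem2 and Plcg2. The cytoplasmic genes have longer transcripts (2963 to 5363 bases) than the receptors and adaptors (442 to 2094 bases), and libraries differed by transcript length across all genes at 10 CPM or more. For the 260 such genes of at most 800 bases, the median deviation from the mean of all libraries was 0.34 on the log2 scale in inside graft 2 and -0.24 and -0.21 in outside grafts 3 and 4, the same libraries that were extreme for Tyrobp. With this trend removed from every library, a correction added after seeing the data, 14 of the 16 pairs between the blocks still had r below 0. The other 2 were Plcg2 with Trem2 (0.33) and with Tyrobp (0.14). The pairs within blocks stayed above 0, and the edgeR log2 fold change of Tyrobp was 0.51 with an adjusted P of 0.305. On the same corrected scale that of Trem2 was 0.35 and that of Hcst 0.36.

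**Figure D4:**
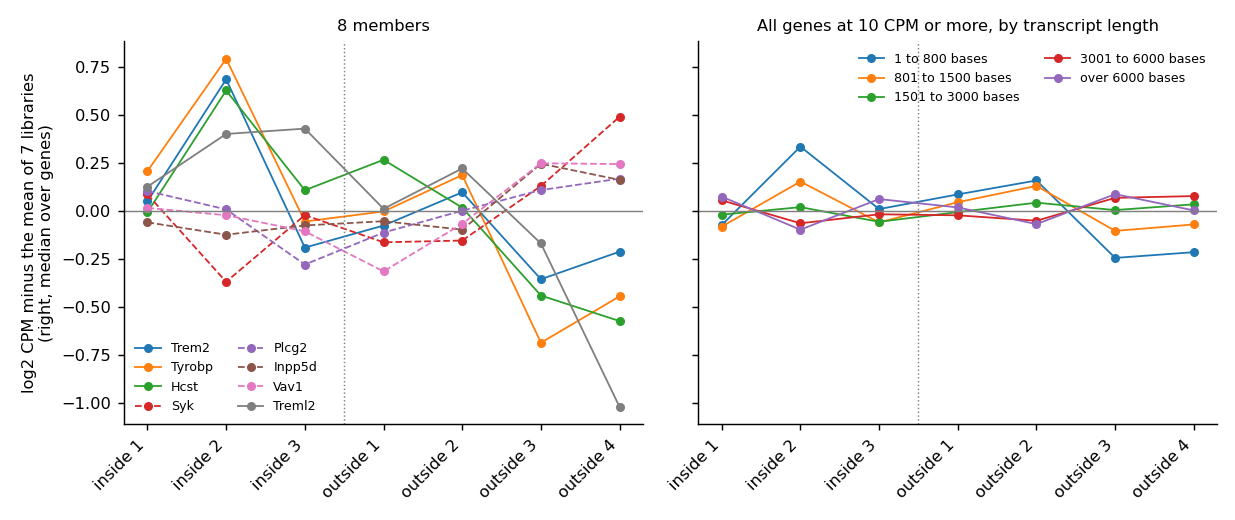
Deviation of log2 CPM from the mean of the 7 libraries (y axis) for the 8 members (left; solid lines, receptors and adaptors; dashed lines, cytoplasmic genes) and as medians of all genes at 10 CPM or more grouped by transcript length (right). Genes of at most 800 bases are high in inside graft 2 (0.34) and low in outside grafts 3 (-0.24) and 4 (-0.21), in the same direction as Tyrobp, Trem2 and Hcst.

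The genes most like Trem2 over the 7 libraries, by Pearson r of log2 CPM among tested genes at 10 CPM or more, were Ergic3 (0.995), Akr1a1 (0.988), Vkorc1 (0.985), Ost4 (0.983) and Fcgr3 (0.983). Those most like Tyrobp were Rpl36a (0.994), Echs1 (0.989), Rps2 (0.986), Rps24 (0.981) and Rpl23 (0.98). All 10 were themselves uncalled, and each was highest in inside graft 2.

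Upstream of the receptor, the genes of TREM2 ligands differed strongly between the groups. Apoe, which encodes the main lipoprotein of the brain, measured 3077, 8306 and 3990 CPM inside the graft and 1248, 1041, 627 and 868 CPM outside it. All inside libraries stood above all outside libraries, and the log2 fold change was 2.44 ± 0.32 (SE, edgeR adjusted P = 0.0357; 0.0136 with quality weights). Lgals3, which encodes galectin-3, measured 24.1, 35.6 and 33.0 CPM inside and 6.88, 5.03, 4.06 and 9.80 CPM outside, a log2 fold change of 2.26 ± 0.31 (SE, edgeR adjusted P = 0.0368; 0.0195 with quality weights). Clusterin (Clu) did not exceed 1.14 CPM in any library and Apoa1 was below the filter, so 2 of the 3 tested genes of this list of 4 rose. With 1 library left out in turn, Apoe and Lgals3 were called by edgeR in 3 and 1 of the 7 fits and with quality weights in 5 of 7, losing the latter call without outside graft 3 or 4 (adjusted P up to 0.0945 and 0.116). Without a filter on low counts, Apoe also lost the call with quality weights (adjusted P = 0.0508).

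The Apoe to Trem2 ratio of counts was 5.85, 10.2 and 8.97 inside the graft and 2.59, 1.92, 1.58 and 1.98 outside it. The groups did not overlap, with means of 8.33 ± 2.23 (SD, n = 3) and 2.02 ± 0.421 (SD, n = 4). The ratio of Axl to Trem2 was 0.531, 0.622 and 0.533 inside and 0.139, 0.145, 0.0862 and 0.183 outside. Both partner genes were chosen after they had been called in this comparison, so these ratios are a description without a test.

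Genes that process the receptor did not pass the test. Of the 8 sheddase and γ-secretase genes, which cut TREM2 from the cell surface and within the membrane, all were tested and 0 were called in either test, with a median edgeR log2 fold change of 0.01 beside -0.01 over all tested genes. The largest changes were those of Ncstn (0.11), Adam17 (0.09) and Psenen (-0.07). No gene of this list had an unadjusted P below 0.05 with edgeR or with quality weights.

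The lists around the cytoplasmic members likewise held no called gene in these tests. Of the 67 genes in the list just described and 5 further lists (Src- and Tec-family kinases, ITAM adaptors and scaffolds, PI3 kinase and Akt, phospholipase C and calcium, and Vav and Rac), 35 had higher and 32 lower means inside the graft and 0 were called by edgeR or with quality weights, while 7 had an unadjusted edgeR P below 0.05, 8 with quality weights, and 2 were called by DESeq2. Over all tested genes these shares were 9.55%, 12.2% and 2.75%, respectively. The medians of the 6 lists ran from -0.04 to 0.03.

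Within these lists, the members of largest change are given as values. Among kinases, Fgr, a Src-family kinase of myeloid cells, measured 25.7, 37.6 and 22.3 CPM inside the graft and 13.9, 8.90, 4.18 and 13.8 CPM outside it, a log2 fold change of 1.48 with an edgeR adjusted P of 0.162 and 0.0695 with quality weights. The groups did not overlap for Fgr. Yes1 was at -0.42 and Lyn, the most abundant kinase of the list at 723 to 921 CPM, at -0.13. Among adaptors, Lat (at most 0.931 CPM) was at 0.95, the inhibitory adaptor Dok3 at -0.43 and Lat2 at 0.37.

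Among PI3 kinase genes, the regulatory subunit Pik3r5 was at -0.57 and the catalytic subunit Pik3cb at 0.43. Pik3r5 measured 137, 149 and 115 CPM inside the graft and 181, 152, 238 and 223 CPM outside it, with all inside libraries below all outside libraries and an edgeR adjusted P of 0.243. Among calcium genes, the receptor Itpr1 was at 0.61, Nfatc2 at -0.29 and Stim1 at -0.25. In the Vav and Rac list, Vav3 was at 4.22 but had at most 5.65 CPM and 0 counts in 3 outside libraries, the hematopoietic GTPase Rac2 was at 0.44 (edgeR adjusted P = 0.288), and Was was at -0.27.

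For the inhibitory side, 8 phosphatase and ITIM-receptor genes were tested and 0 were called, with a median of 0.27. Sirpa, the most abundant at 3374 to 4439 CPM, was at -0.14. Lilrb4a, an inhibitory receptor, measured 44.9, 55.6 and 72.8 CPM inside the graft and 26.9, 38.5, 17.4 and 24.4 CPM outside it, without overlap, and its log2 fold change of 1.11 had an edgeR adjusted P of 0.13 and 0.0575 with quality weights, which became 0.0496, a call, with the length trend removed. Ptpn22 was at 0.98 and Pirb at 0.53.

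Of 12 other receptors that can couple to DAP12 or DAP10, 6 passed the filter and 0 were called. Siglech, the most abundant at 2445 to 2987 CPM, was at -0.16 (edgeR adjusted P = 0.601). Pilrb1 was at 3.91, with 5.61, 0.533 and 8.51 CPM inside the graft and 0, 0, 0.966 and 0.283 CPM outside, which is the same order within the inside libraries as S100a8. Sirpb1b was at 2.64 and did not exceed 2.36 CPM. Cd300lb was at 1.71, with 8.71, 7.46 and 7.12 CPM inside and 0.32, 3.02, 3.30 and 2.79 CPM outside, and its groups did not overlap (edgeR adjusted P = 0.36).

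Genes of the plaque-associated stages of microglia were examined beside the signalling genes. Those known from Trem2-deficient mice to need Trem2 had higher means inside the graft for 10 of 10 genes, with a median log2 fold change of 1.30, and 1 rose in edgeR and 3 with quality weights. Axl, a receptor tyrosine kinase for apoptotic cells, measured 279, 508 and 237 CPM inside the graft and 67.1, 78.9, 34.2 and 80.2 CPM outside it, a log2 fold change of 2.39 ± 0.32 (SE, edgeR adjusted P = 0.0357). Clec7a, the β-glucan receptor dectin-1, measured 255, 399 and 154 CPM inside and 52.3, 102, 34.0 and 58.5 CPM outside, at 2.13 (edgeR adjusted P = 0.0682; 0.0335 with quality weights). Itgax, encoding CD11c, was at 1.51 (edgeR adjusted P = 0.0772; 0.0474 with quality weights).

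All 3 were highest in inside graft 2, like Trem2 itself. Their edgeR log2 fold changes over the leave-one-out fits ran from 1.99 to 2.60 for Axl, 1.73 to 2.48 for Clec7a and 1.01 to 1.73 for Itgax, with calls in 2, 0 and 0 of the 7 fits. With quality weights calls were kept in 5, 4 and 2 of the 7 fits. All calls with quality weights for these genes were lost without outside graft 3 and without outside graft 4. Clec7a also lost this call without inside graft 1, and Itgax without inside graft 1, outside graft 1 or outside graft 2. Over the 7 fits, the highest adjusted P values with quality weights were 0.0945 for Axl, 0.18 for Clec7a and 0.274 for Itgax. The call of Itgax with quality weights was also lost with the length trend removed (adjusted P = 0.0502).

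Of the genes known to rise without Trem2, the 5 on the list used here also had higher means inside the graft in 5 of 5, with a median of 0.58. Apoe and Tyrobp were left out of this list, as a ligand gene and a member. The medians of the stage lists therefore do not compare the stages. Lyz2, which encodes lysozyme, measured 2420, 2439 and 3511 CPM inside and 600, 734, 351 and 593 CPM outside, and its log2 fold change of 2.29 ± 0.23 (SE) was called in both tests (edgeR adjusted P = 0.0218; 0.00527 with quality weights). It was the 1 gene of this list called by either test, and edgeR lost this call without inside graft 3 or outside graft 4 (adjusted P up to 0.0825). Lyz2 was highest in inside graft 3, the library with the highest sums of neutrophil markers (16131 CPM) and monocyte markers (1496 CPM). The part of neutrophil and monocyte RNA in the Lyz2 values was not tested. No Trem2-deficient animals were among the samples, so the names of these lists are background and their dependence on Trem2 was not measured here.

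**Figure D5:**
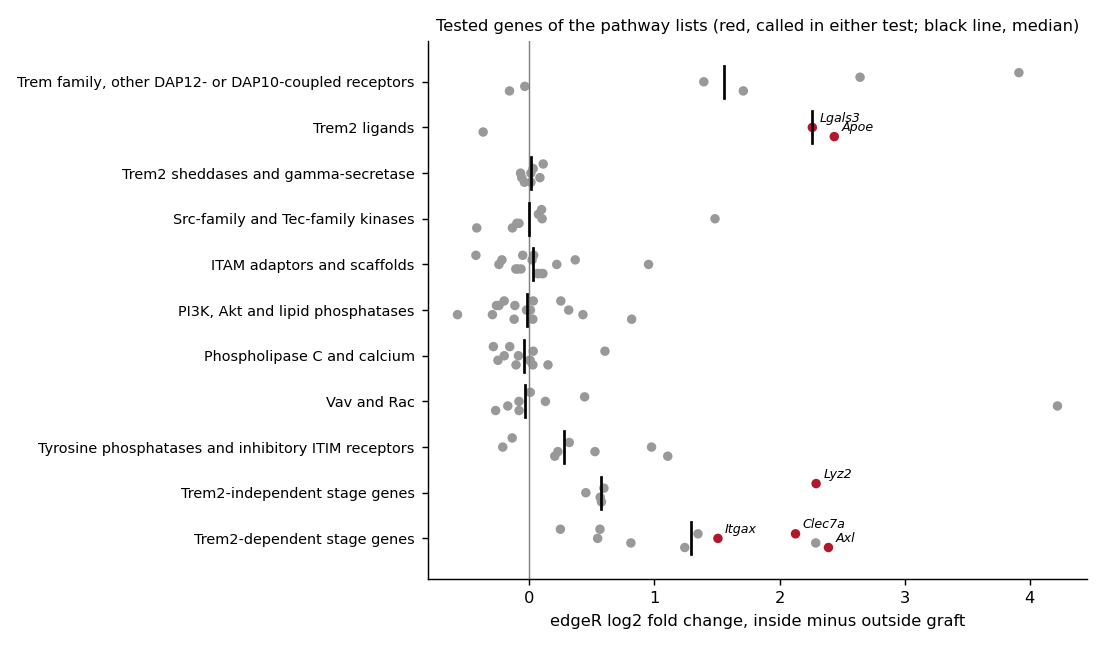
The edgeR log2 fold change, inside minus outside graft (x axis), of every tested gene of 11 pathway lists, with a black line for each list's median and red for genes called in either test. The 6 red genes are Apoe, Lgals3, Lyz2, Axl, Itgax and Clec7a, while the sheddase, kinase, adaptor, PI3 kinase, phospholipase and Vav lists have medians between -0.04 and 0.03.

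The identity of the sorted cells was checked with marker lists. All 10 microglia markers were detected in every library, and P2ry12, a receptor of homeostatic microglia, measured 4358 to 5950 CPM inside the graft and 6055 to 7440 CPM outside it. All 10 had lower means inside, with a median of -0.20 and 0 calls in both tests. Before adjustment, 6 had a P below 0.05 in each test, where the shares of all tested genes were 9.55% with edgeR and 12.2% with quality weights. For 4 of the 10, all inside libraries stood below all outside libraries (5.02% of tested genes), and DESeq2 called 1 (2.75% of tested genes). The summed level of 10 neutrophil markers was 8294, 1586 and 16131 CPM inside and 687 to 1073 CPM outside, of which Csf3r gave 687 to 716 CPM, and 9 monocyte markers summed to 94.8 to 1496 CPM inside and 17.5 to 34.4 CPM outside, with Ly6c2 at 1.73 to 71.7 CPM inside and at most 0.891 CPM outside. Inside graft 2, with the highest Trem2, Tyrobp, Hcst, Apoe and Axl, had the lowest neutrophil and monocyte sums of the inside libraries. The summed level of 10 border-associated macrophage markers overlapped between groups (414 to 678 and 538 to 638 CPM), of which Stab1, the most abundant, gave 379 to 622 CPM. However, 8 of the 9 tested genes of this list had higher means inside, with a median log2 fold change of 3.36 and 7 unadjusted edgeR P values below 0.05. None was called by edgeR, 1 (Siglec1) was called with quality weights and 3 by DESeq2, and Mrc1 measured 61.2, 7.81 and 48.6 CPM inside against 4.18 to 14.2 CPM outside.

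Proliferation markers were higher inside the graft for all 8 genes, with summed levels of 90.4 to 142 CPM against 10.7 to 39.8 CPM, and Mki67 at 15.7 to 40.4 CPM against at most 3.60 CPM. For all 8, the inside libraries all stood above the outside libraries (5.65% of tested genes). Of these 8, edgeR called 0, quality weights 2 (0.492% of tested genes) and DESeq2 4 (2.75%). Before adjustment, all 8 had a P below 0.05 with edgeR and with quality weights (9.55% and 12.2% of tested genes). The T-cell marker Cd3e had at most 1 count in any library. The summed level of the 12 T- and NK-cell markers was 3.33 to 12.2 CPM inside and 0.374 to 1.33 CPM outside, and 0 of them passed the filter. The share of T-cell RNA, and that of neutrophil, monocyte and proliferation RNA, in the values of the members and of the other listed genes was not tested.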

How the data were processed

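Microglia sorted from inside WT grafts and from nearby cortex of 5xFAD mice were profiled by bulk RNA-seq of amplified cDNA with single reads, in 3 and 4 libraries. The authors deposited raw counts per gene name, made with STAR 2.7.2a and featureCounts 1.6.2 on GRCm38.p6 with the GENCODE M21 annotation, as the study's methods, the file header and the submitters' processing notes give them, without normalization. Strand was ignored and reads aligning to several places were left out, which lowers counts of genes with near-identical copies. Total counts ran from 18644807 to 25882122 per library. Reads carried no molecular identifiers, so limits for a count of 0 (3 counts) cover counting error only.

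Analysis used edgeR 4.0.16, DESeq2 1.42.0 and limma 3.58.1 under R 4.3.3. After removal of low-count genes (filterByExpr, by group) and TMM normalization, edgeR's glmQLFTest and limma's voomWithQualityWeights were fitted over all 15257 genes with Benjamini-Hochberg adjustment and a threshold of 0.05. Groups and library numbers came from the labels. All 9 pairs of libraries within a group differed by more than counting noise (lowest chi-square per degree of freedom, 16.6). The members and gene lists were chosen with earlier results of these data known. Named were the 8 members, list genes called in either test or otherwise the 3 of largest change, the most abundant receptor, ligand and phosphatase gene, the 5 genes most like Trem2 and Tyrobp, and the defining and most abundant markers, apart from 3 genes that are not reported here. Alternatives were other normalizations, filters, tests and thresholds, the replicate number as a block, each library left out and, added after seeing the data, removal of the transcript-length trend (lowess) and principal-transcript lengths. Levels per kilobase and ratios were computed with Python 3.11.15 and SciPy 1.17.1. The scripts were tested on simulated data. Every column of counts belonged to a sample of the series.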

Additional observations from a re-analysis of the deposited data

Results flagged for a closer look

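Among 22 values checked for a library far from the other 3 outside the graft (each member, 2 ratios and 12 marker sums), 3 were flagged, where chance alone would flag about 1 in 20. None was a member. The summed level of neutrophil markers was 1073 CPM in outside graft 3 against 687 to 729 CPM in the other outside libraries. In outside graft 1, whose total was the lowest, neuron markers summed to 10.5 CPM against 4.31 to 5.35 CPM, and immediate early genes summed to 486 CPM against 615 to 640 CPM.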

How the results depend on the processing

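Among alternative values of the members' log2 fold changes, 237 kept their direction and their side of the threshold, 2 turned direction and 1 passed the threshold. In edgeR with 1 library left out, Plcg2 ran from -0.17 to 0.010, the latter without inside graft 3, and Vav1 was 0.0078 with the replicate block. Over all alternatives the edgeR adjusted P of Tyrobp ran from 0.261 to 0.802 and that of Trem2 from 0.46 to 0.953. DESeq2 gave an adjusted P of 0.198 for Tyrobp. The number of members called was 0 under all edgeR alternatives and, with quality weights, under all but the replicate block. Before adjustment, 1457 genes had an edgeR P below 0.05. The number of genes called by edgeR, 15, was 366 without a filter and 92 where every library had to reach 10 counts. It was 420 with DESeq2, 0 at an adjusted P below 0.01 and 0 to 73 with 1 library left out. With quality weights, 75 became 225, 211, 3 at 0.01 and 1 to 207, respectively. The cause was not tested. The labels do not say whether inside and outside libraries of the same number were paired. Deviations of libraries with the same number correlated at -0.043, 0.090 and 0.067. Inside grafts 2 and 3 correlated best with their own number and inside graft 1 with outside graft 4 (0.064). Correlations this small cannot decide whether the libraries were paired. With the replicate block, which leaves out outside graft 4, edgeR called 43 genes and 0 members, and quality weights called 265 genes and 1 member, Tyrobp (log2 fold change 0.54, adjusted P = 0.0174). The median of the DAP12- and DAP10-coupled receptors, 1.55, was -0.09 with at least 10 counts in every library and 0.23 without inside graft 3. The lowest counts among the members were those of Treml2 (15 to 43), and the effect of depth was not tested.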
